A study of Mus musculus with 6 samples.

Results

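The guidance genes are the semaphorins of classes 3 to 7, their plexin and neuropilin receptors, the ephrins and Eph receptors, the netrins, and the Slits with their Robo receptors. They were taken by gene symbol from a table of read counts in mouse prostate. The symbol patterns matched 65 of the 24091 rows, namely 20 semaphorins, 9 plexins, 2 neuropilins, 8 ephrins, 14 Eph receptors, 4 netrins, 3 Slits, 4 Robos and 1 antisense RNA, Plxna4os1, whose symbol begins like that of the plexin gene. RNA was sequenced from whole tissue in 6 libraries. Prostate tumors labelled 12Q (n = 2) came from males with a humanised allele that encodes 12 glutamines in a polyglutamine tract, and tumors labelled 48Q (n = 2) carried the same kind of allele with 48 glutamines. Both tumor genotypes also held the Ctnnb1(Ex3)L/wt allele, a β-catenin gene with a conditional exon 3, and the PBCre-4 transgene, which expresses Cre recombinase from a probasin promoter in prostate epithelium. Loss of exon 3 stabilises β-catenin. Normal prostate (WT, n = 2) came from wild-type mice with none of these alleles, so tumor growth, stabilised β-catenin, Cre and the humanised allele cannot be told apart in a comparison of tumors with WT prostate. The age of the mice is not stated in the labels.

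Guidance cues were first described for growing axons, and the same families steer blood vessels, sort epithelial cells and shape gland branching. Semaphorins are secreted or membrane-bound ligands that signal through plexins, and most class 3 semaphorins need a neuropilin as co-receptor. Ephrins stay on the cell surface and bind Eph receptor tyrosine kinases on neighbouring cells, so that both cells can receive a signal. Secreted Slits bind Robo receptors, and netrins act through DCC, neogenin and UNC5 receptors. In the mouse intestine Ephb2 and Ephb3 are known targets of β-catenin and TCF factors.

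Library totals were 26416181 to 28559546 counts, so that 3 counts in a library corresponded to 0.0856 to 0.156 CPM (edgeR's counts relative to the library total after TMM scaling). Pbsn, the androgen-regulated secretory gene probasin, was at 3.33 and 5.14 CPM in 12Q tumors, 3954 and 2248 CPM in 48Q tumors, and 28210 and 16140 CPM in WT prostate, and the luminal epithelium markers were detected in all 6 libraries. The whole list of 6 secretory genes summed to 14900 and 635 CPM in 12Q tumors, 14400 and 10400 CPM in 48Q tumors, and 97400 and 66700 CPM in WT prostate, so the 12Q libraries differed widely. Of its 5 tested members 1, Pbsn, was lower in 12Q tumors than in WT prostate in edgeR, where 11.2% of all tested genes were. Markers of other cell types also differed between the groups. Summed over 10 fibroblast markers, the level was 161 and 464 CPM in 12Q tumors, 1160 and 1040 CPM in 48Q tumors, and 661 and 774 CPM in WT prostate, with Dpt at 0 in both 12Q libraries. For 10 smooth muscle markers the sum was 128 and 127 CPM in 12Q tumors, 1070 and 413 CPM in 48Q tumors, and 2790 and 7320 CPM in WT prostate, and 10 of 10 were lower in 12Q tumors than in WT prostate in edgeR, against the same 11.2%. The sum over 10 endothelial markers was 285 and 321 CPM in 12Q tumors, 143 and 143 CPM in 48Q tumors, and 77.9 and 117 CPM in WT prostate. Basal epithelium markers summed to 121 and 180 CPM in 12Q tumors, nearly all of it Itgb4, against 338 and 293 CPM in 48Q tumors and 288 and 271 CPM in WT prostate. Sums over 8 macrophage markers were higher in both tumor genotypes, at 201 and 216 CPM in 12Q tumors, 269 and 257 CPM in 48Q tumors, and 72.8 and 74.4 CPM in WT prostate. Of the 8, 6 were higher and 1 lower in 12Q over WT in edgeR, against 11.2% of all tested genes in each direction. For 48Q over WT 6 were higher and 0 lower, against 3.95% and 1.23% of all tested genes. Schwann cell and nerve markers summed to 119 and 159 CPM in 12Q tumors, 108 and 82.3 CPM in 48Q tumors, and 114 and 112 CPM in WT prostate, with Sox10 at 0 in both 12Q libraries. These sums hide falls of single markers. The median log2 fold change over the 7 tested was -3.1 in 12Q over WT and -3.26 in 12Q over 48Q tumors. In 12Q over WT 2 of the 7 were lower and 0 higher in edgeR, against 11.2% of all tested genes in each direction. The plot of marker sums shows these lists, other than the secretory genes, by library.

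**Figure D1:**
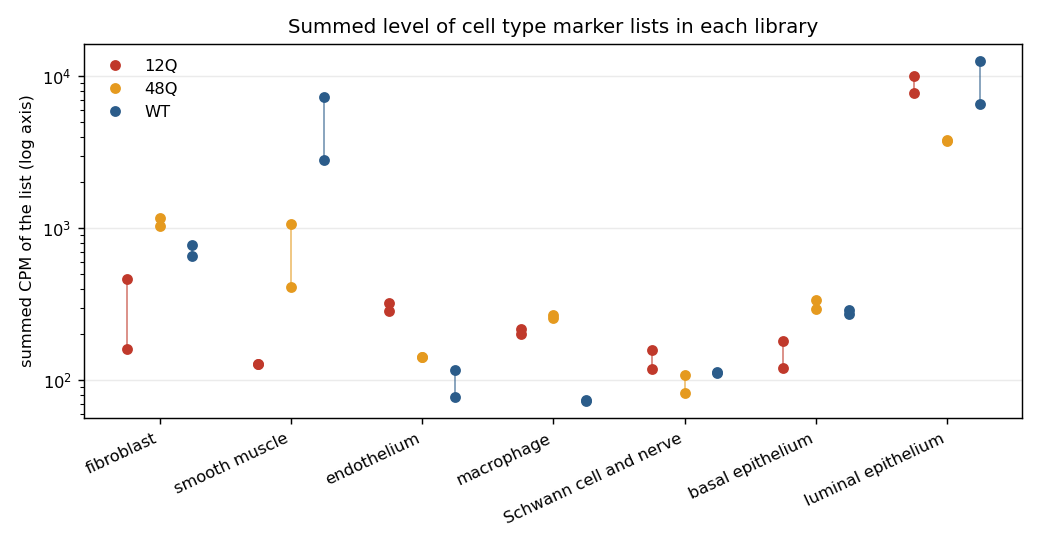
Summed level (CPM, log axis) of the fibroblast, smooth muscle, endothelium, macrophage, Schwann cell and nerve, basal and luminal epithelium markers in each library. The 12Q, 48Q and WT libraries stand from left to right for each list. Fibroblast, smooth muscle and basal sums were lowest in the 12Q libraries and endothelial sums highest there.

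Of the 65 guidance genes, 56 had enough reads to be tested. The call was an adjusted p under 0.05 in edgeR's quasi-likelihood test, adjusted over all 15050 tested genes. In 12Q tumors against WT prostate 26 of the 56 (46.4%) passed, 16 higher and 10 lower, where 22.4% of all tested genes passed, 11.2% higher and 11.2% lower. The median log2 fold change was 0.62 over the 56 guidance genes and -0.01 over all tested genes. In 48Q tumors against WT prostate 6 of 56 (10.7%) passed, 6 higher and 0 lower, against 5.18% of all tested genes (3.95% higher, 1.23% lower). At an unadjusted p under 0.05 the edgeR test had 16 higher and 2 lower there, beside 3749 of all 15050 tested genes. DESeq2's test called 15 higher and 2 lower, beside 2540 of all genes, 61.5% of them higher. In 12Q against 48Q tumors 9 of 56 (16.1%) passed, 2 higher and 7 lower, against 4.17% of all tested genes (1.01% higher, 3.16% lower). The median log2 fold change of the guidance genes was 0.82 in 48Q over WT and -0.09 in 12Q over 48Q tumors, where it was 0.02 and 0 over all tested genes. Both tumor genotypes were set against the same WT libraries, so the 2 comparisons with WT prostate are not independent. In whole tissue, fewer cells of a type and less RNA per cell cannot be told apart.

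The size of these counts differed with the libraries included. In 12Q tumors against WT prostate, 18 to 25 guidance genes passed with any 1 library left out, and 14 of the 26 genes passed under every alternative that was tried. The 48Q against WT calls were all lost without either 48Q library or without WT replicate 1, and most were lost without WT replicate 2. Without 12Q replicates 1 and 2 they came to 11 and 10. None of the 9 genes called between the tumor genotypes passed edgeR's test once either 12Q or either 48Q library was left out. The only guidance gene called then was Plxnb2, higher in 12Q tumors without 12Q replicate 1. Scaling by library totals in place of TMM moved the median of all genes to 0.48 in 12Q and 0.71 in 48Q tumors over WT prostate, and to -0.19 in 12Q over 48Q tumors. The share of higher calls among all calls was then 76.0% in place of 50.1% for 12Q and 95.9% in place of 76.3% for 48Q tumors against WT prostate, and 14.1% in place of 24.2% for 12Q against 48Q tumors. The guidance genes under that scaling split into 17 higher and 7 lower, 11 higher and 0 lower, and 1 higher and 7 lower in the same order of comparisons.

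**Figure D2:**
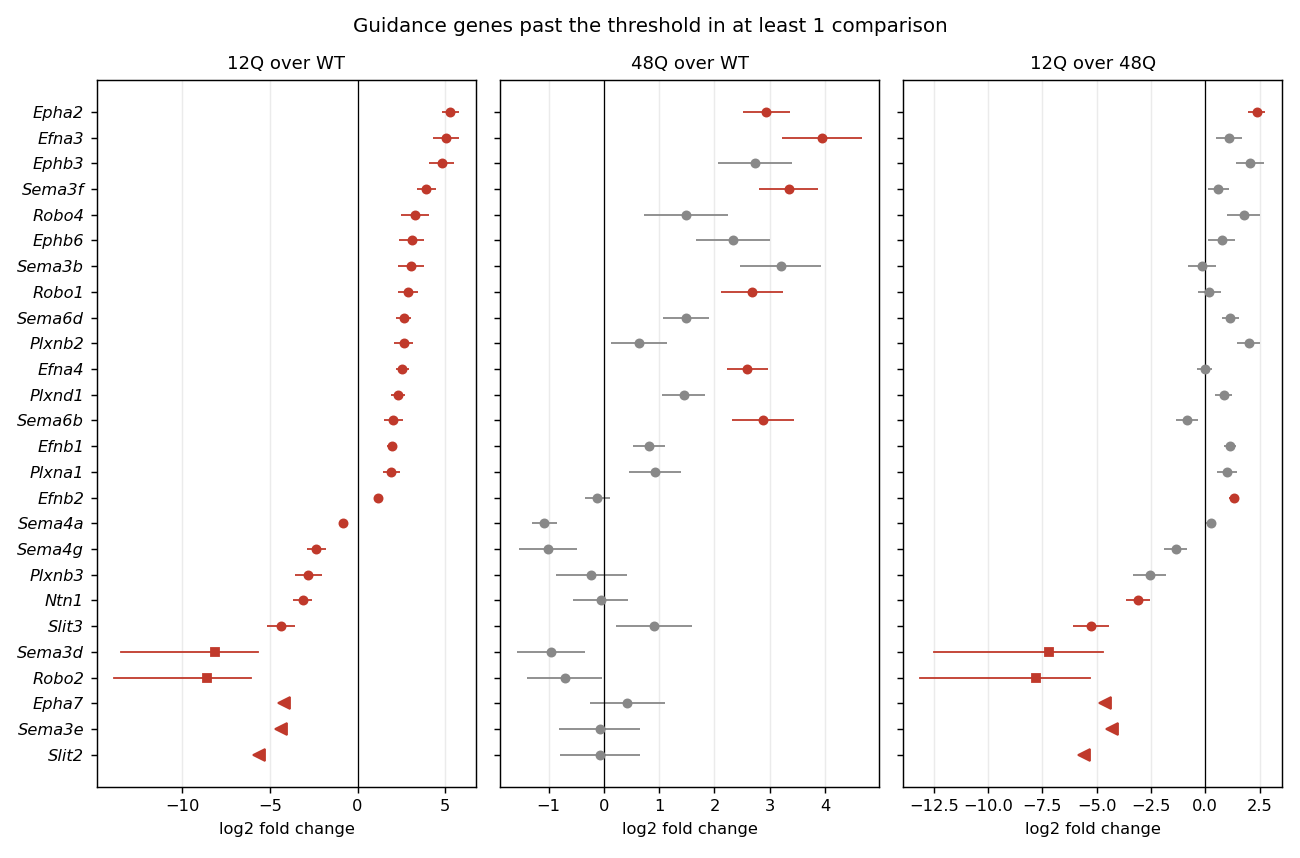
Log2 fold change in 12Q over WT, 48Q over WT and 12Q over 48Q, 1 panel each with its own horizontal range. Only guidance genes called in at least 1 of these comparisons are shown. Circles are edgeR estimates with their standard error, squares are CPM ratios with an exact 95% interval where a group held 1 to 3 counts, triangles are bounds where a group was at 0 counts, and red marks an adjusted p under 0.05. Epha2, Efna3 and Sema3f lie far to the right in both tumor genotypes over WT prostate. Slit2, Slit3, Robo2, Sema3d, Sema3e and Epha7 lie far to the left in 12Q tumors over both other groups.

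Among the ephrins and Eph receptors most changes were increases in tumors. In 12Q tumors against WT prostate 4 of 8 ephrins (50%) rose and 0 fell (0 also at an unadjusted p under 0.05 in edgeR and in DESeq2's test). In the same comparison 3 of 10 tested Eph receptors (30%) rose and 1 (10%) fell, where 11.2% of all tested genes rose and 11.2% fell. EphA receptors bind mainly the glycolipid-anchored A ephrins and EphB receptors mainly the transmembrane B ephrins. Epha2, an epithelial receptor whose main ligand is Efna1, was at 78.2 and 56.9 CPM in 12Q tumors, 13.3 and 13.0 CPM in 48Q tumors, and 1.04 and 2.34 CPM in WT prostate. The 3 groups did not overlap, with 12Q highest and WT lowest. Its log2 fold change was 5.30 ± 0.47 (SE, adjusted p = 0.00337) in 12Q over WT, 2.94 ± 0.43 (adjusted p = 0.0251) in 48Q over WT and 2.36 ± 0.40 (adjusted p = 0.037) in 12Q over 48Q tumors in edgeR. Under scaling by library totals the 12Q over 48Q value was 2.17, with an edgeR adjusted p of 0.0585. Epha2 lies on chromosome 4 at 141301221 to 141329384 (mm10, plus strand).

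The promoter of Epha2 is shown because the tumors carry a β-catenin allele and the window holds a match to a motif of the TCF/LEF factors that β-catenin binds. The sequence is RefSeq's (GRCm38.p6), chr4:141300971-141301270 on the plus strand, 250 bases before to 50 bases after the start, with the match in capitals.
Epha2: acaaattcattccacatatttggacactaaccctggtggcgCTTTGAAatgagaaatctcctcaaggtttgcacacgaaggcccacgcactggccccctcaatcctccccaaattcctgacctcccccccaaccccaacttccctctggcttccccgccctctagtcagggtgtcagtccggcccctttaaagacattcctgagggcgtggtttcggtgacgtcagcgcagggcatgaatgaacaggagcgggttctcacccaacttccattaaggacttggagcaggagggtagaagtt
The motifs searched on both strands were CTTTGAT and CTTTGAA for TCF/LEF and AGAACA, a core element of steroid receptor sites, and the first 2 differ in their last letter so that 1 site cannot match both. Promoters were found for 56 of the 65 guidance genes, 72 promoters in all. Either TCF/LEF motif was present in 3 of these 72 (4.17%), those of Epha2, Sema3e and Nrp2, and in 8.65% of all 32851 promoters in the table. AGAACA was present in 8 of 72 (11.1%), which belong to Plxna3, Plxnd1, Sema4d, Sema6b and Sema6d, and in 19.0% of all promoters. These matches are descriptions of letters in the window.

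Efna3 and Efna4 are neighbours on chromosome 3 (89314951 to 89322879 and 89333393 to 89338028, minus strand), 10.5 kb apart, with Efna1 34 kb further along and no other table gene between them. Efna3 was at 3.29 and 8.11 CPM in 12Q tumors, 2.80 and 2.54 CPM in 48Q tumors, and 0.209 and 0.133 CPM in WT prostate, where it was near the limit of 3 counts. Efna4 was at 12.0 and 17.1 CPM in 12Q tumors, 13.9 and 16.0 CPM in 48Q tumors, and 2.24 and 2.70 CPM in WT prostate. For both genes all 4 tumor libraries lay above both WT libraries, and the tumor genotypes overlapped for Efna4. The log2 fold change of Efna3 was 5.04 ± 0.74 (edgeR adjusted p = 0.00879) in 12Q and 3.95 ± 0.72 (adjusted p = 0.0388) in 48Q over WT, and that of Efna4 was 2.56 ± 0.37 (edgeR adjusted p = 0.00852) and 2.59 ± 0.37 (adjusted p = 0.0236). The exons of each overlap another annotated gene on the opposite strand, and without a stated strand setting their reads cannot be told apart from those of that gene. Efna1, the A ephrin with the highest level per kilobase in all 3 groups, was at 62.2 and 87.6 CPM in 12Q tumors, 35.9 and 37.1 CPM in 48Q tumors, and 62.6 and 27.4 CPM in WT prostate, and did not pass in any comparison (edgeR adjusted p = 0.235 for 12Q over WT).

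Both other ephrins that rose in 12Q tumors were B ephrins. Efnb1 was at 63.9 and 84.2 CPM in 12Q tumors, 32.9 and 34.4 CPM in 48Q tumors, and 15.1 and 22.9 CPM in WT prostate, 3 groups without overlap, with a log2 fold change of 1.96 ± 0.30 in 12Q over WT (edgeR adjusted p = 0.00944). Efnb2, a ligand of the venous receptor Ephb4 and a marker of arterial endothelium, was at 204.7 and 187.5 CPM in 12Q tumors, 83.5 and 75.5 CPM in 48Q tumors, and 94.9 and 78.1 CPM in WT prostate. Only the 12Q tumors stood apart among these 6 libraries. Efnb2 was higher in 12Q tumors by 1.18 ± 0.22 over WT (edgeR adjusted p = 0.0161) and by 1.30 ± 0.22 over 48Q tumors (adjusted p = 0.0364) on the log2 scale. Ephb4 itself was at 43.2 and 26.6 CPM in 12Q tumors, 28.7 and 25.8 CPM in 48Q tumors, and 16.9 and 34.5 CPM in WT prostate, and did not pass. The endothelial marker sum was also higher in 12Q tumors, and its part in the Efnb2 result was not tested.

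Ephb3, one of the β-catenin targets of the mouse intestine, was at 22.7 and 60.1 CPM in 12Q tumors, 9.30 and 10.6 CPM in 48Q tumors, and 0.73 and 2.21 CPM in WT prostate. All tumor libraries lay above WT, with a log2 fold change of 4.80 ± 0.72 in 12Q over WT (edgeR adjusted p = 0.00936) and 2.74 ± 0.67 in 48Q over WT (adjusted p = 0.0689, not past the threshold). DESeq2's test called Ephb3 higher in 48Q over WT and in 12Q over 48Q tumors. Ephb2, the other such target, was at 0.333 and 2.32 CPM in 12Q tumors, 5.39 and 6.87 CPM in 48Q tumors, and 0.417 and 0.973 CPM in WT prostate. It was highest in the 48Q tumors, with a log2 fold change of 3.12 ± 0.98 in 48Q over WT that did not pass in edgeR (adjusted p = 0.116), although DESeq2's test called it higher. Ephb6, a receptor whose kinase domain is inactive, was at 14.8 and 43.3 CPM in 12Q tumors, 20.3 and 14.2 CPM in 48Q tumors, and 1.88 and 4.95 CPM in WT prostate, a log2 fold change of 3.08 ± 0.69 in 12Q over WT (edgeR adjusted p = 0.027).

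Epha7 was the Eph receptor that fell in 12Q tumors. No read was counted in either 12Q library, against 2.89 and 2.20 CPM in 48Q tumors and 1.09 and 2.70 CPM in WT prostate. With 3 counts per 12Q library as the limit, its level in 12Q tumors was at least 18.6-fold lower than in WT prostate (edgeR adjusted p = 0.0115) and at least 25-fold lower than in 48Q tumors (adjusted p = 0.0304). Without WT replicate 2 the bound against WT was 10.7-fold. Epha4 differed most between replicates of 1 group, with 0.999 and 47.8 CPM in the 12Q tumors, and it did not pass (edgeR adjusted p = 0.331 for 12Q over WT). Epha1, Epha3, Ephb1, Efna2, Efna5 and Efnb3 also passed in no comparison, and Epha5, Epha6, Epha8 and Epha10 were too low to be tested.

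Leaving out 1 library moved the fold change of several of these genes by more than 1.5-fold, with values given here on the log2 scale. For 12Q over WT, Efna3 was at 4.25 without 12Q replicate 2 and Epha2 at 6.01 without WT replicate 2. Ephb3 was at 5.39, 3.94 and 5.81 without 12Q replicate 1, 12Q replicate 2 and WT replicate 2. Ephb6 was at 3.71 and 3.94 without 12Q replicate 1 and WT replicate 2, and did not pass at 2.12 without 12Q replicate 2 (edgeR adjusted p = 0.0854) or at 2.56 without WT replicate 1 (adjusted p = 0.0952). Efnb2 kept its value of 1.18 but not its call without 48Q replicate 1 (edgeR adjusted p = 0.0613) or 48Q replicate 2 (adjusted p = 0.0615), which share the estimate of the spread. For 48Q over WT, Epha2 was at 3.64 without WT replicate 2.

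**Figure D3:**
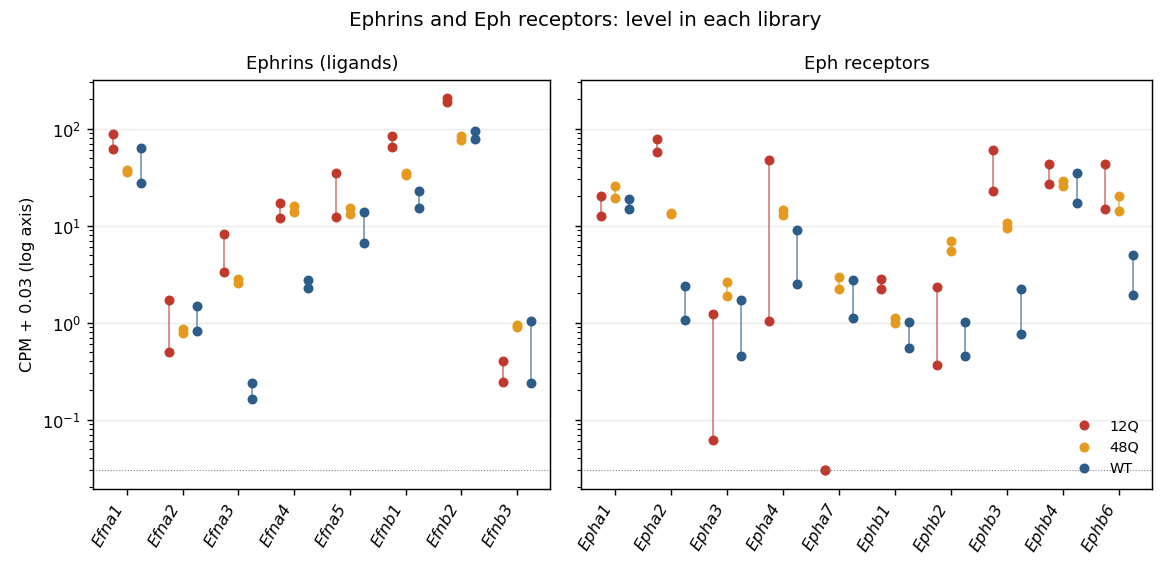
Level of each tested ephrin and Eph receptor in each library (CPM + 0.03, log axis), 1 dot per library with the 12Q, 48Q and WT groups from left to right for each gene. Epha2 steps down across the 3 groups, Efna3 and Efna4 are high in both tumor genotypes, and Epha7 is at 0 in both 12Q libraries.

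The semaphorins split in 12Q tumors. Of 19 tested, 4 rose (Sema3b, Sema3f, Sema6b and Sema6d) and 4 fell (Sema3d, Sema3e, Sema4a and Sema4g) against WT prostate. That was 21.1% in each direction, against 11.2% of all tested genes in each direction. Sema3f, a secreted repellent that binds neuropilin 2, was at 71.0 and 152.8 CPM in 12Q tumors, 74.3 and 74.6 CPM in 48Q tumors, and 4.43 and 10.3 CPM in WT prostate. Every tumor library exceeded both WT libraries several times over, and the log2 fold change was 3.92 ± 0.55 in 12Q (edgeR adjusted p = 0.00806) and 3.34 ± 0.53 in 48Q over WT (adjusted p = 0.0298). Sema3b, also a neuropilin ligand, lies 72.3 kb away on chromosome 9 (107597674 to 107609241, minus strand), with 3 other table genes between it and Sema3f. Its level was 18.1 and 64.0 CPM in 12Q tumors, 34.3 and 56.5 CPM in 48Q tumors, and 2.92 and 6.94 CPM in WT prostate. Sema3b was higher by 3.05 ± 0.73 in 12Q over WT on the log2 scale (edgeR adjusted p = 0.0315). Its 48Q over WT value of 3.20 ± 0.73 did not pass in edgeR (adjusted p = 0.0603), although DESeq2's test called it higher.

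Sema6b and Sema6d are transmembrane semaphorins that bind class A plexins. Sema6d was at 47.3 and 26.9 CPM in 12Q tumors, 16.1 and 17.2 CPM in 48Q tumors, and 4.28 and 7.61 CPM in WT prostate, a log2 fold change of 2.64 ± 0.43 in 12Q over WT (edgeR adjusted p = 0.0115). Sema6b was at 2.997 and 3.09 CPM in 12Q tumors, 5.84 and 5.02 CPM in 48Q tumors, and 0.991 and 0.486 CPM in WT prostate. Both tumor genotypes lay above WT for both genes. Sema6b rose by 2.05 ± 0.55 in 12Q (edgeR adjusted p = 0.043) and by 2.88 ± 0.56 in 48Q over WT (adjusted p = 0.0438) on the log2 scale.

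Sema3d and Sema3e, secreted class 3 semaphorins encoded on chromosome 5, were nearly absent from 12Q tumors. Sema3a lies between them, 536 kb from Sema3d and 422 kb from Sema3e, with 1 other table gene between Sema3a and Sema3e. Sema3d had 1 count in all in the 12Q libraries (0.037 and 0 CPM), against 2.05 and 2.88 CPM in 48Q tumors and 4.75 and 4.86 CPM in WT prostate. Its CPM ratio was 0.0035 in 12Q over WT (exact 95% interval 8.83e-05 to 0.0197, edgeR adjusted p = 0.00572) and 0.00681 in 12Q over 48Q tumors (0.000171 to 0.0385, adjusted p = 0.0246). Sema3e, which binds plexin D1 directly, had no counts in 12Q tumors, against 2.89 and 1.08 CPM in 48Q tumors and 2.71 and 1.503 CPM in WT prostate, at least 20.7-fold lower than in WT (edgeR adjusted p = 0.0134) and at least 19.5-fold lower than in 48Q tumors (adjusted p = 0.039). Sema3a, a neuropilin 1 ligand, was at 0.259 and 0.0309 CPM in 12Q tumors, 2.53 and 1.82 CPM in 48Q tumors, and 0.991 and 0.973 CPM in WT prostate. It missed the threshold in each comparison in edgeR (adjusted p = 0.0759 for 12Q over WT and 0.0656 for 12Q over 48Q tumors), although DESeq2's test called it lower in these 2 comparisons. All 3 genes were thus lowest in the 12Q libraries, where the fibroblast and smooth muscle marker sums were also lowest; the part of those cells in these results was not tested.

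The promoter of Sema3e held the second TCF/LEF match among the called genes. It is shown for comparison with that of Epha2, from RefSeq (GRCm38.p6), chr5:14025026-14025325 on the plus strand, with the match in capitals, which reads CTTTGAA on the opposite strand.
Sema3e: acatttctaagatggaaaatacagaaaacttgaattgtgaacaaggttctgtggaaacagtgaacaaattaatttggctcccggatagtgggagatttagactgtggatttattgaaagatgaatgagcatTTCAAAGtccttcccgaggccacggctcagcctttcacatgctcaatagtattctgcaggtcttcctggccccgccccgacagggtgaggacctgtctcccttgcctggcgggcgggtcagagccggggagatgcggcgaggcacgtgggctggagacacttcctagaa
Epha2 rose and Sema3e fell in 12Q tumors against WT prostate, so the 2 promoters with this match belong to genes that moved in opposite directions.

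Sema4a and Sema4g are transmembrane class 4 semaphorins. Sema4a was at 213 and 239 CPM in 12Q tumors, 183 and 199 CPM in 48Q tumors, and 413 and 395 CPM in WT prostate. Both tumor genotypes lay below WT, by -0.84 ± 0.23 in 12Q (edgeR adjusted p = 0.0469) and -1.08 ± 0.23 in 48Q over WT (adjusted p = 0.0535) on the log2 scale. DESeq2's test called Sema4a lower in 48Q over WT. The 12Q call was lost in 11 of 12 alternatives, and under scaling by library totals the value was -0.33 (edgeR adjusted p = 0.29). Sema4g was at 10.5 and 11.9 CPM in 12Q tumors, 25.6 and 31.5 CPM in 48Q tumors, and 27.2 and 87.4 CPM in WT prostate, a log2 fold change of -2.36 ± 0.54 in 12Q over WT (edgeR adjusted p = 0.0291). Sema3c, an attractive cue for several cell types, was at 134.4 and 171.0 CPM in 12Q tumors, 89.4 and 91.2 CPM in 48Q tumors, and 354.5 and 165.3 CPM in WT prostate, and did not pass in edgeR (adjusted p = 0.0743 for 48Q over WT), although DESeq2 called it lower in 48Q tumors. Sema5a was at 190.4 and 246 CPM in 12Q tumors, 104.7 and 85.2 CPM in 48Q tumors, and 17.5 and 89.8 CPM in WT prostate. It did not pass in edgeR (adjusted p = 0.0829 for 12Q over WT), although DESeq2's test called it higher in 12Q over WT. Of the remaining semaphorins, Sema3g, Sema4b, Sema4c, Sema4d, Sema4f, Sema6a, Sema6c and Sema7a passed in no comparison.

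The plexins, the receptors of these ligands, were led by Plxnb2. Of 9 plexins, 3 rose (Plxna1, Plxnb2 and Plxnd1, 33.3%) and 1 fell (Plxnb3, 11.1%) in 12Q tumors against WT prostate. Of all tested genes 11.2% rose and 11.2% fell there. In 48Q over WT and in 12Q over 48Q tumors 0 plexins passed in edgeR, where 5.18% and 4.17% of all tested genes passed. In these 2 comparisons 3 and 3 plexins had an unadjusted p under 0.05 in edgeR, beside 3749 and 3961 of all 15050 tested genes. DESeq2's test called Plxnb1, Plxnc1 and Plxnd1 higher in 48Q over WT and Plxnb2 higher in 12Q over 48Q tumors. Plxnb2, a receptor of class 4 semaphorins in epithelia, was at 483 and 1469 CPM in 12Q tumors, 238 and 249 CPM in 48Q tumors, and 150.5 and 163.9 CPM in WT prostate. It had the highest level per kilobase of all guidance genes in 12Q tumors, at 145 CPM per kb, against 36.1 in 48Q tumors and 23.3 in WT prostate. Its log2 fold change was 2.63 ± 0.54 in 12Q over WT (edgeR adjusted p = 0.0209). Plxnd1, the receptor of Sema3e in blood vessels, was at 35.0 and 61.2 CPM in 12Q tumors, 27.3 and 26.4 CPM in 48Q tumors, and 7.36 and 12.4 CPM in WT prostate, a log2 fold change of 2.28 ± 0.40 in 12Q over WT (edgeR adjusted p = 0.0135). Plxnd1 and its ligand Sema3e thus changed in opposite directions in 12Q tumors.

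Plxna1, a partner of neuropilins and of class 6 semaphorins, was at 87.0 and 249.1 CPM in 12Q tumors, 81.3 and 87.3 CPM in 48Q tumors, and 42.9 and 46.1 CPM in WT prostate, a log2 fold change of 1.92 ± 0.48 in 12Q over WT (edgeR adjusted p = 0.0355). Plxnb3 was near the limit, at 0.074 and 0.0619 CPM in 12Q tumors, 0.361 and 0.485 CPM in 48Q tumors, and 0.417 and 0.575 CPM in WT prostate, with a log2 fold change of -2.80 ± 0.76 (edgeR adjusted p = 0.0452) that passed in 1 of 11 alternatives. Plxna2, Plxna3, Plxna4, Plxnb1 and Plxnc1 passed in no comparison in edgeR. The neuropilins did not pass in edgeR, and DESeq2's test called Nrp1 higher in 48Q over WT. Nrp1 was at 43.0 and 31.6 CPM in 12Q tumors, 62.0 and 59.1 CPM in 48Q tumors, and 4.59 and 24.0 CPM in WT prostate (edgeR adjusted p = 0.134 for 48Q over WT), and Nrp2, co-receptor of Sema3f, was at 7.14 and 19.0 CPM in 12Q tumors, 30.1 and 23.4 CPM in 48Q tumors, and 7.88 and 34.8 CPM in WT prostate.

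Several of these values or calls changed when 1 library was left out. For 12Q over WT, Plxnb2 was at 3.27 without 12Q replicate 1 and 1.62 without 12Q replicate 2, and did not pass without WT replicate 1 (2.58, edgeR adjusted p = 0.0896) or WT replicate 2 (2.69, adjusted p = 0.081). Plxna1 was at 2.53 and 0.97 without 12Q replicates 1 and 2, and did not pass in edgeR without either 48Q or either WT library (adjusted p = 0.0571 to 0.131). Sema3b was at 3.74 without 12Q replicate 1 and did not pass without 12Q replicate 2 (1.88, edgeR adjusted p = 0.0941), WT replicate 1 (2.57, adjusted p = 0.124) or WT replicate 2 (3.81, adjusted p = 0.0683). Sema3f was at 3.27 without 12Q replicate 2 and 4.65 without WT replicate 2 in 12Q, and at 4.06 without WT replicate 2 in 48Q over WT. Sema4g was at -2.96 and -1.29 without WT replicates 1 and 2, and did not pass without 12Q replicate 1 (-2.22, edgeR adjusted p = 0.109) or 12Q replicate 2 (-2.45, adjusted p = 0.101). Sema6b in 12Q over WT was at 2.64 without WT replicate 1 and did not pass in edgeR without any of the other 5 libraries (adjusted p = 0.0714 to 0.138), and in 48Q over WT it was at 3.47 without WT replicate 1 (edgeR adjusted p = 0.105). The count of Sema3d in 12Q tumors lay in replicate 1, without which it was at least 51.8-fold lower than WT, and at least 26.5-fold lower than 48Q tumors. Without 12Q replicate 2 its ratio was 0.00769 to WT and 0.0149 to 48Q tumors. The bound of Sema3e against 48Q tumors was 10.6-fold without 48Q replicate 1.

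**Figure D4:**
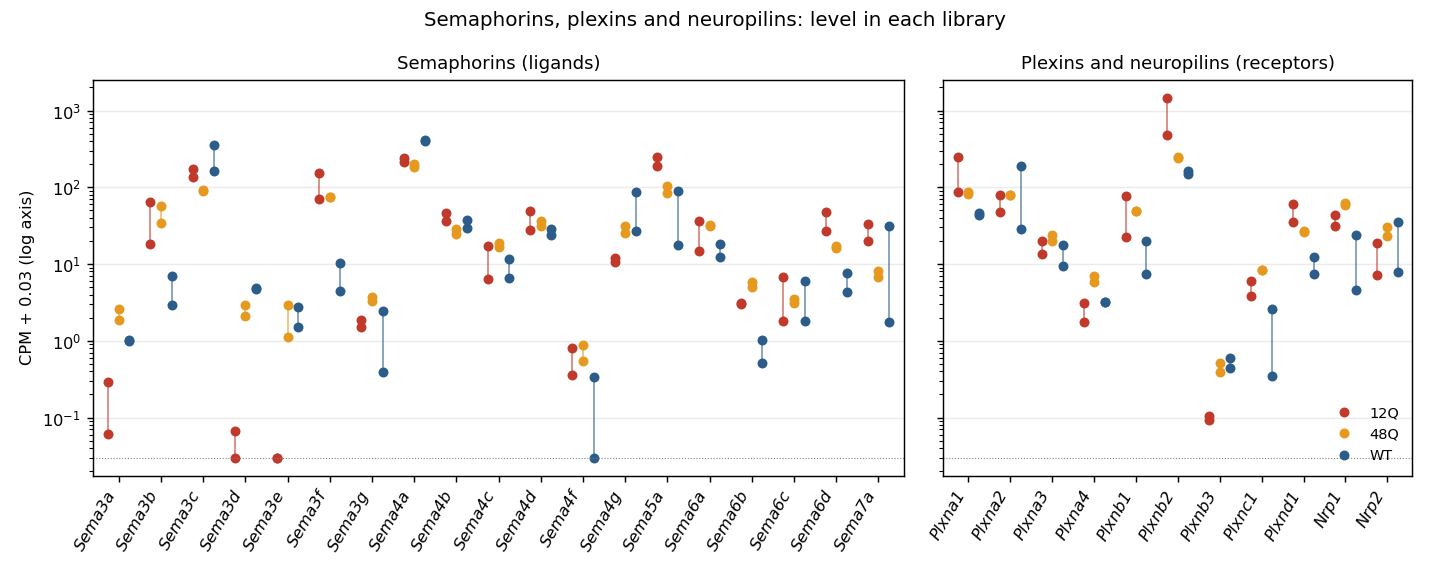
Level of each tested semaphorin, plexin and neuropilin in each library (CPM + 0.03, log axis), 1 dot per library with the 12Q, 48Q and WT groups from left to right for each gene. Sema3f and Sema3b are high in all 4 tumor libraries, Sema3d and Sema3e are at or near 0 in 12Q tumors, and Plxnb2 is highest in 12Q tumors.

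In 12Q tumors both tested Slits fell, while the Robo receptors changed in both directions. Slit2 and Slit3 were lower, and of 3 tested Robos 2 rose (Robo1 and Robo4) and 1 fell (Robo2) against WT prostate. Of all tested genes 11.2% rose and 11.2% fell in that comparison. Slit2 had no counts in either 12Q library, against 5.09 and 4.71 CPM in 48Q tumors and 2.14 and 8.09 CPM in WT prostate. It was at least 50.2-fold lower in 12Q tumors than in WT (edgeR adjusted p = 0.0103) and at least 48.0-fold lower than in 48Q tumors (adjusted p = 0.0315). Slit3 was at 2.26 and 0.495 CPM in 12Q tumors, 55.2 and 49.0 CPM in 48Q tumors, and 15.5 and 40.0 CPM in WT prostate. The 12Q tumors lay below and the 48Q tumors above both WT libraries, with log2 fold changes of -4.35 ± 0.80 in 12Q over WT (edgeR adjusted p = 0.0158), 0.91 ± 0.69 in 48Q over WT (adjusted p = 0.45) and -5.25 ± 0.83 in 12Q over 48Q tumors (adjusted p = 0.0317).

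Slit2 lies on chromosome 5 at 47983155 to 48307736 (mm10, plus strand). Its promoter is shown as that of the guidance gene with the largest bound, from RefSeq (GRCm38.p6), chr5:47982905-47983204 on the plus strand. The window holds none of the 3 motifs searched, and its GC content was 68.0%, against 54.7% for the Epha2 and 50.7% for the Sema3e window.
Slit2: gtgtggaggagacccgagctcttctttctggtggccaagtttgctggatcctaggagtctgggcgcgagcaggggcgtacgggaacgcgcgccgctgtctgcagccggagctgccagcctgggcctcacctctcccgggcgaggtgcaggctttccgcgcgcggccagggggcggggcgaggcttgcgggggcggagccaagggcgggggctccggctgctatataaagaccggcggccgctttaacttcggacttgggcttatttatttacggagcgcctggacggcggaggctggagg
Of the 10 fibroblast markers, 6 were lower in 12Q tumors than in WT prostate in edgeR (Dpt, Lum, Pdgfra, Pi16, Fbln1 and Gli1), against 11.2% of all tested genes, and Dcn, Col1a1, Col1a2 and Col3a1 did not pass. Dcn was at 45.8 and 168.0 CPM in 12Q tumors, 483 and 309 CPM in 48Q tumors, and 446 and 342.5 CPM in WT prostate. Col1a1 was at 73.8 and 194.8 CPM in 12Q tumors, 146.7 and 191.3 CPM in 48Q tumors, and 12.8 and 74.1 CPM in WT prostate, so fibroblast markers were not uniformly low in 12Q tumors. Pdgfra was at 0.851 and 1.11 CPM in 12Q tumors, 82.0 and 63.6 CPM in 48Q tumors, and 23.4 and 42.2 CPM in WT prostate. The part of these cells in the Slit values was not tested.

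The receptors Robo1 and Robo2 lie 846 kb apart on chromosome 16 with no other table gene between them, and changed in opposite directions in 12Q tumors against WT prostate. Robo1 was at 144.7 and 53.9 CPM in 12Q tumors, 62.0 and 111.9 CPM in 48Q tumors, and 16.2 and 11.05 CPM in WT prostate. Both tumor genotypes lay above WT and overlapped each other, with log2 fold changes of 2.87 ± 0.56 (edgeR adjusted p = 0.0184) in 12Q and 2.68 ± 0.56 (adjusted p = 0.0498) in 48Q over WT. Robo2 had 1 count in all in 12Q tumors (0 and 0.0309 CPM), against 4.04 and 3.56 CPM in 48Q tumors and 3.18 and 9.24 CPM in WT prostate. The CPM ratio of Robo2 was 0.00261 in 12Q over WT (exact 95% interval 6.58e-05 to 0.0147, edgeR adjusted p = 0.00695) and 0.00444 in 12Q over 48Q tumors (0.000112 to 0.025, adjusted p = 0.0255).

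Robo4, a receptor of endothelial cells, was at 15.5 and 19.2 CPM in 12Q tumors, 4.16 and 6.08 CPM in 48Q tumors, and 0.522 and 3.09 CPM in WT prostate, 3 groups without overlap. It rose by 3.25 ± 0.80 in 12Q over WT on the log2 scale (edgeR adjusted p = 0.0349), beside 4 of 10 endothelial markers that rose and 1 that fell in the same comparison, against 11.2% of all tested genes in each direction. The part of endothelial cells in the Robo4 value was not tested.

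Netrins are secreted relatives of laminin. Ntn1, the ligand of DCC and UNC5 receptors, was at 1.48 and 0.929 CPM in 12Q tumors, 11.4 and 8.95 CPM in 48Q tumors, and 6.83 and 14.4 CPM in WT prostate. Both 12Q libraries lay below all 4 others, by -3.14 ± 0.55 against WT (edgeR adjusted p = 0.0135) and -3.08 ± 0.55 against 48Q tumors (adjusted p = 0.0395) on the log2 scale. Ntn3 and Ntn4 also had negative 12Q over 48Q values (-2.36 ± 0.92 and -2.0 ± 0.59) that did not pass in edgeR (adjusted p = 0.17 and 0.105), although DESeq2's test called Ntn4 lower.

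Here too leaving out a library mattered. In 12Q over WT, Slit3 was at -5.75, -3.61 and -3.51 without 12Q replicate 1, 12Q replicate 2 and WT replicate 2, and in 12Q over 48Q tumors at -6.68 and -4.51 without 12Q replicates 1 and 2. The bound of Slit2 against WT was 79.4-fold without WT replicate 1 and 21-fold without WT replicate 2. Robo1 in 12Q over WT was at 2.03 without 12Q replicate 1 and did not pass without WT replicate 1 (3.17, edgeR adjusted p = 0.0664) or WT replicate 2 (2.62, adjusted p = 0.089). Robo4 was at 2.49 and 5.04 without WT replicates 1 and 2, and did not pass in edgeR without either 12Q or either 48Q library (adjusted p = 0.0532 to 0.0961). The count of Robo2 in 12Q tumors lay in replicate 2, without which Robo2 was at least 56.0-fold lower than WT and 34.2-fold lower than 48Q tumors, and without WT replicate 2 its ratio to WT was 0.0053. Without 12Q replicate 1 the ratio was 0.00479 to WT and 0.00816 to 48Q tumors. Ntn1 was at -2.51 without WT replicate 2 and did not pass without 12Q replicate 2 (-2.84, edgeR adjusted p = 0.0572).

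**Figure D5:**
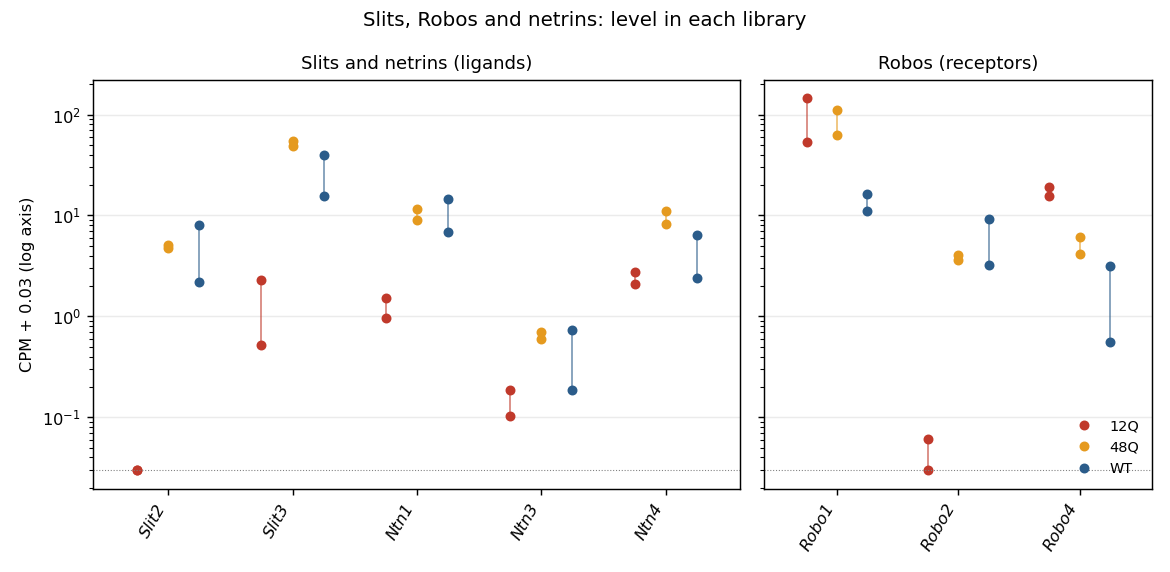
Level of each tested Slit, Robo and netrin in each library (CPM + 0.03, log axis), 1 dot per library with the 12Q, 48Q and WT groups from left to right for each gene. Slit2 is at 0 and Robo2 at 0 or 1 count in the 12Q libraries, while Robo1 is higher in all 4 tumor libraries than in WT prostate.

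The other genes of these pathways were taken from a list of 61 receptors, effectors and sheddases, of which 59 were tested. In 12Q tumors against WT prostate 5 rose and 6 fell (18.6%, against 22.4% of all tested genes), in 48Q tumors against WT 2 rose and 0 fell (3.39%, against 5.18%), and in 12Q against 48Q tumors 1 rose and 2 fell (5.08%, against 4.17%). For 48Q over WT, 14 of the 59 had an unadjusted p under 0.05 in edgeR, beside 3749 of all 15050 tested genes. DESeq2's test called 8 of the list, beside 2540 of all genes. All these counts are in either direction. Unc5b, a netrin receptor of endothelial and epithelial cells, was at 196 and 326 CPM in 12Q tumors, 84.2 and 133.8 CPM in 48Q tumors, and 27.0 and 54.4 CPM in WT prostate. It was higher in 12Q tumors, where its ligand Ntn1 was lower, by 2.68 ± 0.47 over WT on the log2 scale (edgeR adjusted p = 0.0135, and 3.27 without WT replicate 2).

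Vav3, a signalling protein that acts below Eph receptors, was at 74.4 and 146.0 CPM in 12Q tumors, 10.6 and 17.3 CPM in 48Q tumors, and 4.59 and 6.54 CPM in WT prostate. It stood apart in the 12Q tumors, by 4.30 ± 0.48 over WT (edgeR adjusted p = 0.00481) and 2.98 ± 0.45 over 48Q tumors (adjusted p = 0.0288) on the log2 scale. Dpysl3, a cytoplasmic mediator of semaphorin signals, was at 172.6 and 135.5 CPM in 12Q tumors, 101 and 124.5 CPM in 48Q tumors, and 14.03 and 21 CPM in WT prostate, and rose by 3.14 ± 0.31 in 12Q (edgeR adjusted p = 0.00373) and by 2.69 ± 0.30 in 48Q over WT (adjusted p = 0.0136).

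Evl and Enah are actin regulators of the same family that bind Robo receptors. Evl was at 106.7 and 109.7 CPM in 12Q tumors, 56.9 and 73.0 CPM in 48Q tumors, and 34.6 and 34.6 CPM in WT prostate, 1.64 ± 0.22 higher in 12Q over WT on the log2 scale (edgeR adjusted p = 0.00733). Enah was at 105.4 and 140.5 CPM in 12Q tumors, 285 and 224 CPM in 48Q tumors, and 309 and 330.0 CPM in WT prostate, a log2 fold change of -1.38 ± 0.27 in 12Q over WT (edgeR adjusted p = 0.0186) that did not pass without 12Q replicate 1 (adjusted p = 0.0521), 48Q replicate 1 (0.0544) or 48Q replicate 2 (0.057).

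Flrt2, a membrane protein that binds Unc5d, was at 0.37 and 0.588 CPM in 12Q tumors, 13.9 and 6.05 CPM in 48Q tumors, and 15.8 and 24.98 CPM in WT prostate. The 12Q tumors were lowest, by -5.39 ± 0.63 against WT (edgeR adjusted p = 0.00542) and -4.36 ± 0.61 against 48Q tumors (adjusted p = 0.0255) on the log2 scale. Unc5d itself was detected almost only in 48Q tumors, at 13.9 and 4.16 CPM, with no counts in 12Q tumors and 1 count in WT prostate (0 and 0.0442 CPM). It was at least 88.5-fold lower in 12Q than in 48Q tumors (edgeR adjusted p = 0.0304), and its ratio in 48Q over WT was 372 (exact 95% interval 66.4 to 14700, adjusted p = 0.0326).

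Between the tumor genotypes each of the 3 partner calls was lost in edgeR without some libraries. Flrt2 and Unc5d did not pass without 12Q replicate 1, 12Q replicate 2 or 48Q replicate 1 (adjusted p = 0.075 to 0.0986 for Flrt2 and 0.0751 to 0.121 for Unc5d), and Vav3 did not pass without 12Q replicate 2, 48Q replicate 1 or 48Q replicate 2 (adjusted p = 0.0663 to 0.148). Leaving out 48Q replicate 1 gave an Unc5d bound of 40.9-fold and leaving out 48Q replicate 2 one of 136-fold, and the Flrt2 log2 fold change was -3.64 without 48Q replicate 1. In 48Q over WT, Dpysl3 did not pass without 48Q replicate 2 (edgeR adjusted p = 0.0621) or WT replicate 1 (adjusted p = 0.0828). Unc5d did not pass there without any 1 of the 48Q and WT libraries (edgeR adjusted p = 0.0623 to 0.152). Its ratio was 174, 580 and 201 without 48Q replicate 1, 48Q replicate 2 and WT replicate 1, and it was at least 57.7-fold higher without WT replicate 2.

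Per kilobase of transcript, the highest guidance genes in 12Q tumors were Plxnb2 (145 CPM per kb), Sema4a (64.5 CPM per kb), Efna1 (45.8 CPM per kb), Efnb2 (45.5 CPM per kb) and Sema3c (28.4 CPM per kb). The level of Sema4a was 54.5 CPM per kb in 48Q tumors and 115 CPM per kb in WT prostate, where it was the highest of the guidance genes, and that of Sema3c was 16.8 CPM per kb in 48Q tumors and 48.3 CPM per kb in WT prostate. Summed over all guidance genes, the level was 2251 and 3871 CPM in 12Q tumors, 1727 and 1792 CPM in 48Q tumors, and 1641 and 1536 CPM in WT prostate. Plxnb2 alone accounted for 483 and 1469 CPM of the 12Q sums.

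Replicates differed more in some groups than in others. Among guidance genes with a mean of at least 1 CPM in a group, 8 of 45 differed more than 3-fold between both 12Q libraries, 1 of 52 between both 48Q libraries and 14 of 47 between both WT libraries. The median fold between replicates was 1.64 in 12Q tumors, 1.14 in 48Q tumors and 2.25 in WT prostate. In WT prostate Sema7a, a membrane-anchored semaphorin, was at 30.9 and 1.72 CPM, and Plxna2, a partner of class 6 semaphorins, at 187 and 28.2 CPM, and neither passed in any comparison.

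Of the 9 guidance genes that were not tested, Epha10 had no counts in any library. Plxna4os1, Epha5, Epha6, Epha8, Ntn5, Robo3 and Sema5b reached at most 0.398 CPM in any library. Slit1, the third Slit, was at 0 and 0.124 CPM in 12Q tumors, 2.41 and 0.143 CPM in 48Q tumors, and 0 and 0.0442 CPM in WT prostate, so that its level rested on 48Q replicate 1.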

How the data were processed

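RNA of 12Q tumors, 48Q tumors and WT prostate (2 libraries each) was sequenced after RNA-Bee extraction and Kapa RNA HyperPrep library preparation, per the labels' protocols. The values deposited by the authors are raw counts of reads per gene in 1 table, made with the aligner TopHat2 2.0.14, the counter HTSeq 0.6.0 and the build mm10, per the submitters' processing notes. The annotation, strand setting and handling of multi-mapping reads were not given in the sources used here. Exons of 15 guidance genes overlap another gene of GENCODE M21, which leaves their values uncertain: Efna3, Efna4, Epha1, Epha10, Epha6, Ephb1, Nrp1, Ntn3, Ntn5, Plxna1, Plxna4, Plxnb1, Plxnc1, Sema4a and Sema4c. Near-identical copies were not resolved.

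From these counts, genes were kept by filterByExpr (minimum count 10, minimum total 15), scaled by TMM and tested with edgeR 4.0.16 (R 4.3.3), quasi-likelihood F test, in 1 fit of 3 groups with 3 residual degrees of freedom, with Benjamini-Hochberg adjustment over 15050 genes and a threshold of 0.05. Depth was 26416181 to 28559546 counts per library. Where a group was at 0 the fold is a bound at 3 counts per library, and with 1 to 3 counts the CPM ratio has an exact 95% interval, and both cover counting error only. Whether the replicates of a group were separate animals is not labelled, and p-values therefore measure the spread between libraries, which could be technical only. The script was tested on simulated data. Members, marker and partner lists were chosen with earlier results of these data known. Described by library were each called guidance gene whose groups did not overlap, the member with the highest mean CPM in each family, and up to 6 called partners per comparison with the smallest adjusted p, while the other members and the markers named were picked with their values in view.

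The alternatives tried were DESeq2 size factors, library totals, no filter on low counts, DESeq2 1.42.0's test, fits of the 2 compared groups, a replicate block and leaving out each library.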

Additional observations from a re-analysis of the deposited data

Results flagged for a closer look

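In 3 of 56 tested guidance genes (5.36%) both 12Q tumors lay below both WT libraries while both 48Q tumors lay above them. The same order was found in 497 of the 15050 tested genes (3.3%), and with 2 libraries a group it is no test. Slit3 differed between the tumor genotypes by a log2 fold change of -5.25 in 12Q over 48Q (edgeR adjusted p = 0.0317), a call that did not pass without any 1 of the 4 tumor libraries. Sema3a had a 12Q over 48Q log2 fold change of -3.91 that did not pass in edgeR (adjusted p = 0.0656), although DESeq2's test called it lower. Its levels were 0.259 and 0.0309 CPM in 12Q tumors, 2.53 and 1.82 CPM in 48Q tumors, and 0.991 and 0.973 CPM in WT prostate. Plxna4 had a 12Q over 48Q log2 fold change of -1.41 that did not pass (edgeR adjusted p = 0.14), at 1.70 and 3.09 CPM in 12Q tumors, 7.02 and 5.76 CPM in 48Q tumors, and 3.18 and 3.14 CPM in WT prostate, so that its higher 12Q library lay just under WT, and its exons overlap those of another annotated gene.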

How the results depend on the processing

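Counts of called guidance genes, partner genes and all genes are given in that order. They were 26, 11 and 3370 for 12Q over WT, 6, 2 and 780 for 48Q over WT, and 9, 3 and 627 for 12Q over 48Q tumors. Library totals gave 11, 5 and 2004 for 48Q over WT. DESeq2's test gave 19 partner genes for 12Q over WT, 17, 8 and 2540 for 48Q over WT, and 14, 12 and 2481 for 12Q over 48Q tumors. Fits of the 2 compared groups gave 6 partner genes and 1887 genes in all for 12Q over WT, 10 guidance genes for 48Q over WT and 5 partner genes for 12Q over 48Q tumors. With 1 library left out the ranges were 18 to 25, 5 to 13 and 1861 to 2934 for 12Q over WT, 0 to 11, 0 to 2 and 0 to 1215 for 48Q over WT, and 0 to 9, 0 to 4 and 47 to 866 for 12Q over 48Q tumors. The cause was not tested, except that a fit with 1 library fewer has fewer samples. No called guidance gene changed sign in any of these settings.

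Same-numbered libraries showed little shared deviation over the tested genes (correlations of 0.034 for 12Q with 48Q, 0.148 for 12Q with WT and -0.095 for 48Q with WT). With 2 libraries a group this cannot settle whether the numbers pair the samples, and no label states it. With the number as a replicate block 24, 7 and 9 guidance genes passed for 12Q over WT, 48Q over WT and 12Q over 48Q tumors, 10, 4 and 4 partner genes, and 3066, 854 and 605 genes in all.

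With 2 libraries a group, the spread is known poorly, and levels near 3 counts per library cannot be told from 0. Read direction, animal identity and cell composition cannot be recovered from the table.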
